A study of Mus musculus with 8 samples.

Results

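The miR-200 family (Mir200b, Mir200a, Mir429, Mir200c and Mir141), the miR-183 family (Mir183, Mir96 and Mir182) and Mir205 are 9 microRNA (miRNA) genes known from epithelial cells. They were found by gene symbol among the 5518 rows of 2 deposited tables of small RNA read counts, of which 2207 rows are miRNA genes. Each of the 9 had 1 row, at the same coordinates in the mouse annotation, and none shared bases with another row. Counts are given per hairpin row, so that the arms of a hairpin and its precursor cannot be told apart.

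The libraries fall into 3 groups. MES are B6G-2 mouse embryonic stem cells, for which the labels name no engineered allele, grown without feeders in LIF and without induction (2 libraries, MES1 and MES2). They were sequenced by TEsR, in which linkers are ligated to both RNA ends, caps are removed, and amplified molecules are captured by hybridisation and read on a MiSeq without selection by size. MEF by TEsR are 4 libraries of mouse embryonic fibroblasts whose TRF2 gene, for a protective protein of telomeres, is a conditional allele, and that carry the tamoxifen-activated recombinase Rosa26-CreERT2. Of these 4 samples, 2 were induced with 4-hydroxytamoxifen (4OHT) at 0.6 µM for 48 h and 2 were not. The names of their columns (MEFmmS1, MEFmmS2, MEFpmS1 and MEFpmS2) hold codes left unexplained by the labels, so they were kept as 1 group and no induced MEF was compared with an uninduced one. MEF by TruSeq are 2 libraries of these MEFs, titled as induced, made by the standard small RNA protocol and read on a HiSeq. Their columns are named by index and called TruSeq-A (ATCACG) and TruSeq-C (CGATGT) here. As far as the labels say each cell type came from 1 line, and no label states separate cultures within a group. P-values therefore reflect the spread of these libraries alone, and that spread may be technical. In MEF by TEsR the spread also holds any effect of induction, since induced and uninduced samples are pooled there.

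A miRNA is cut from a hairpin and guides the silencing complex to messenger RNAs that pair with its seed, the bases near its 5′ end. In epithelial cells the miR-200 family and miR-205 repress Zeb1 and Zeb2, transcription factors that shut down E-cadherin, and they are lost when epithelial cells become mesenchymal. Mouse fibroblasts gain them when they are reprogrammed to pluripotent cells, which grow as epithelium-like colonies. The miR-183 family is best known from hair cells, photoreceptors and other sensory cells.

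The mature sequences show which of the 9 share a seed. Each line gives the main arm of 1 gene, from RefSeq (GRCm38.p6), written 5′ to 3′ with the seed (bases 2 to 8) in capitals:

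mmu-miR-200b-3p: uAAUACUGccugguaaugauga

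mmu-miR-200c-3p: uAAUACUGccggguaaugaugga

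mmu-miR-429-3p: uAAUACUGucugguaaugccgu

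mmu-miR-200a-3p: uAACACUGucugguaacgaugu

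mmu-miR-141-3p: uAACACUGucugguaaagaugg

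mmu-miR-183-5p: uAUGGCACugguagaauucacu

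mmu-miR-96-5p: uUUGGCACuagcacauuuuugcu

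mmu-miR-182-5p: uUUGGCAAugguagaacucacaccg

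mmu-miR-205-5p: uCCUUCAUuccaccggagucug

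The first seed belonged to 3 of 1679 mouse mature miRNAs, those of Mir200b, Mir200c and Mir429. The second, which differs from it at 1 base, belonged to 2, those of Mir200a and Mir141. Between members with 1 seed the sequences were close, since miR-200b-3p and miR-200c-3p differed at 2 of the 22 positions compared, as did miR-200a-3p and miR-141-3p. In the miR-183 family no seed was shared, although miR-183-5p and miR-182-5p differed at 4 of 22 positions. The seed of miR-96-5p was shared with 1 miRNA outside the family, miR-1271-5p, and the seed of miR-205-5p with none.

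All 9 hairpins lie on the minus strand in 3 clusters and 1 single locus of mm10. Mir200b (chromosome 4, 156055681 to 156055750), Mir200a (156054896 to 156054985) and Mir429 (156053905 to 156053987) span 1846 bases. All 3 lie in introns of the protein-coding gene Ttll10 and in the noncoding gene Gm13648, where Mir429 is exonic and the other two are intronic. Mir200c (chromosome 6, 124718322 to 124718390) and Mir141 (124717914 to 124717985) span 477 bases in an intron of the antisense gene Gm15884, and Mir141 also lies in an exon of Gm29008. Mir183 (chromosome 6, 30169668 to 30169737), Mir96 (30169446 to 30169551) and Mir182 (30165918 to 30165992) span 3820 bases with no annotated host gene on their strand. Mir205 (chromosome 1, 193507463 to 193507530) lies in an exon of the long noncoding RNA 4631405K08Rik.

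The libraries held 2676776 to 3768668 counts by TEsR and 8442960 to 8961221 by TruSeq. The share of these counts on miRNA rows was 0.242% in both MES libraries, 1.52% to 7.39% in MEF by TEsR, and 0.0603% and 0.0399% in TruSeq-A and TruSeq-C. MEFmmS2 stood apart from the other MEF libraries by TEsR, at 1.52% against 4.76% to 7.39%. Levels are therefore given both as CPM (counts scaled to the library's total) and as a percent of all miRNA counts, and the part of these differences in miRNA content in each result was not tested. The total behind CPM was mostly 2 rows. These held 76.2% to 83.1% of all counts by TEsR, 71.6% in TruSeq-A and 67.8% in TruSeq-C. By TEsR the small nucleolar RNA rows Snord68 and Snord70 had mean CPM of 537678 and 278627 in MES. In MEF they had 396422 and 397975. The cell types matched the sums of their marker lists. The 12 miRNAs of pluripotent cells summed to 1323 and 1383 counts in MES, to 0, 5, 0 and 0 in MEF by TEsR, and to 0 in both TruSeq libraries. The 13 fibroblast markers with a row took 5.79% and 6.11% of miRNA counts in MES, 26.7% to 33.0% in MEF by TEsR, and 15.6% and 13.8% in the TruSeq libraries. By TEsR most of this sum was 1 row, Mir21a, at 5.20% and 5.71% in MES and 24.0% to 29.7% in MEF. Of the same list, Mir10a, Mir10b, Mir199a-1 and Mir199a-2 had at most 2 counts in any TEsR library of MEFs. In TruSeq-A and TruSeq-C, Mir199a-2 had 143 and 85 counts and Mir10b had 12 and 18. Mir199a-1 had 0 and 2 there, and Mir10a had 0 in both. Mir10a had 4 and 1 counts in MES. Markers of blood, liver and neural cells had 0 counts in every library, and of the muscle markers only Mir206 had counts, at most 17. The tables hold small RNAs only, so that they give no check of TRF2.

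Mir205 was the member with the highest level in MES and was nearly absent from MEFs. Its hairpin is printed because it had the largest log2 fold change among the 5 tested members, with both mature arms in capitals and miR-205-5p first:

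Mir205 hairpin: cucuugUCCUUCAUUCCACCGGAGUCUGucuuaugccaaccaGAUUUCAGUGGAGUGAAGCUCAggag

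Mir205 had 157 and 146 counts in MES1 and MES2, which is 56.4 and 54.5 CPM. In MEF by TEsR it had 0 counts in MEFmmS1, MEFmmS2 and MEFpmS1, and 3 counts (0.931 CPM) in MEFpmS2. Both TruSeq libraries had 0 counts, which at a limit of 3 counts allows up to 0.335 CPM in TruSeq-A and 0.355 CPM in TruSeq-C. Both MES libraries thus stood far above all MEF libraries by TEsR, with no overlap, while the TruSeq libraries differ in method as well. The mean was 55.5 ± 1.29 CPM in MES (SD, n = 2) and 0.233 ± 0.466 CPM in MEF by TEsR (SD, n = 4). The pooled counts gave a CPM ratio of 264 with an exact 95% interval of 89.4 to 1285. Without MEFpmS2, MEF by TEsR held no count, and the ratio was at least 204 against 3 counts over the remaining libraries. Here and below, intervals cover counting error only, while libraries of 1 group differed by more than counting error. In the fit of all rows, the log2 fold change of MES over MEF by TEsR was 8.53 ± 0.84 (SE; edgeR quasi-likelihood test, Benjamini-Hochberg adjusted p = 9.88e-06). Without MEFpmS2 it was 11.13 (adjusted p by edgeR = 1.87e-06), a fitted value that depends on the prior count, since the remaining MEF libraries by TEsR are all at 0. As these are bulk samples, fewer cells with the miRNA and less of it per cell cannot be told apart.

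Mir200c was the main member of the miR-200 family in MES. Its hairpin, with both mature arms in capitals and miR-200c-3p second, stands for the family, whose mature arms at the 3′ side carry the shared seeds listed above:

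Mir200c hairpin: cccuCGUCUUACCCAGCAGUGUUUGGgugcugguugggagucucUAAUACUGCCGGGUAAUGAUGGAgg

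Mir200c had 76 and 74 counts in MES1 and MES2 (27.3 and 27.6 CPM). In MEF by TEsR it had 1 count in MEFmmS1, 3 in MEFmmS2, 6 in MEFpmS1 and 4 in MEFpmS2, from 0.268 to 1.70 CPM. It had 0 counts in both TruSeq libraries. Every TEsR library of MEFs therefore held a few reads of Mir200c, all far below the level in MES. The mean was 27.5 ± 0.253 CPM in MES (SD, n = 2) and 1.00 ± 0.611 CPM in MEF by TEsR (SD, n = 4), a ratio of pooled counts of 28.0 (exact 95% interval 16.2 to 52.4). The log2 fold change was 5.55 ± 0.57 (SE; edgeR, Benjamini-Hochberg adjusted p = 1.11e-05).

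Mir141, the neighbour of Mir200c, had 6 and 1 counts in MES and 0, 1, 2 and 0 counts in MEFmmS1, MEFmmS2, MEFpmS1 and MEFpmS2. Its libraries overlapped between the cell types, and it was too low for the fit. Of the counts on the 2 hairpins together, Mir200c held 92.7% in MES1 (exact 95% interval 84.8 to 97.3) and 98.7% in MES2. Per 100 bases of hairpin, Mir200c was 13.2 and 77.2 times as high as Mir141 in these libraries.

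Mir200b, which carries the same seed as Mir200c, had 24 and 18 counts in MES1 and MES2 (8.62 and 6.72 CPM). Of the TEsR libraries of MEFs, it had 12 counts (3.22 CPM) in MEFmmS1, 3 counts (0.796 CPM) in MEFmmS2, and 0 in MEFpmS1 and MEFpmS2. Both TruSeq libraries had 0 counts. MES lay above all MEF libraries by TEsR, which were uneven among themselves, with MEFmmS1 nearest to MES. The mean was 7.67 ± 1.34 CPM in MES (SD, n = 2) and 1.00 ± 1.52 CPM in MEF by TEsR (SD, n = 4). The log2 fold change was 3.62 ± 1.10 (SE; edgeR, Benjamini-Hochberg adjusted p = 0.0119). This call rested on both MES libraries, since the adjusted p by edgeR was 0.112 without MES1 and 0.0693 without MES2. Without MEFmmS1, the MEF library with the most counts of Mir200b, the log2 fold change was 5.08 (adjusted p by edgeR = 0.00121).

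Mir200a and Mir429, the other two genes of that cluster, were near the limit of detection. Mir200a had 6 and 2 counts in MES, and 6 counts in MEFmmS1 against 0 in the other 3 TEsR libraries of MEFs, so that the cell types overlapped. Mir429 had 1 and 2 counts in MES and 0 in all 6 libraries of MEFs. Neither reached the fit. MEFmmS1 held 18 of the 21 counts that the cluster had in MEF by TEsR, at 4.83 CPM against 11.1 and 8.22 CPM in MES.

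Added up over the 5 genes, the miR-200 family reached 40.6 and 36.2 CPM in MES1 and MES2. It reached 5.09 CPM in MEFmmS1, 1.86 in MEFmmS2, 2.26 in MEFpmS1 and 1.24 in MEFpmS2. MES was above every TEsR library of MEFs. By seed, the 3 genes of the first seed summed to 35.7 ± 0.811 CPM in MES (SD, n = 2) and 2.00 ± 1.01 CPM in MEF by TEsR (SD, n = 4). The 2 genes of the second seed summed to 4.31 and 1.12 CPM in MES1 and MES2 and averaged 0.610 ± 0.705 CPM in MEF by TEsR (SD, n = 4). In MES the 3 genes of the first seed held 195 of the 210 counts of the family. These counts are per hairpin, so reads of the other arm, with another seed, may be among them.

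**Figure D1:**
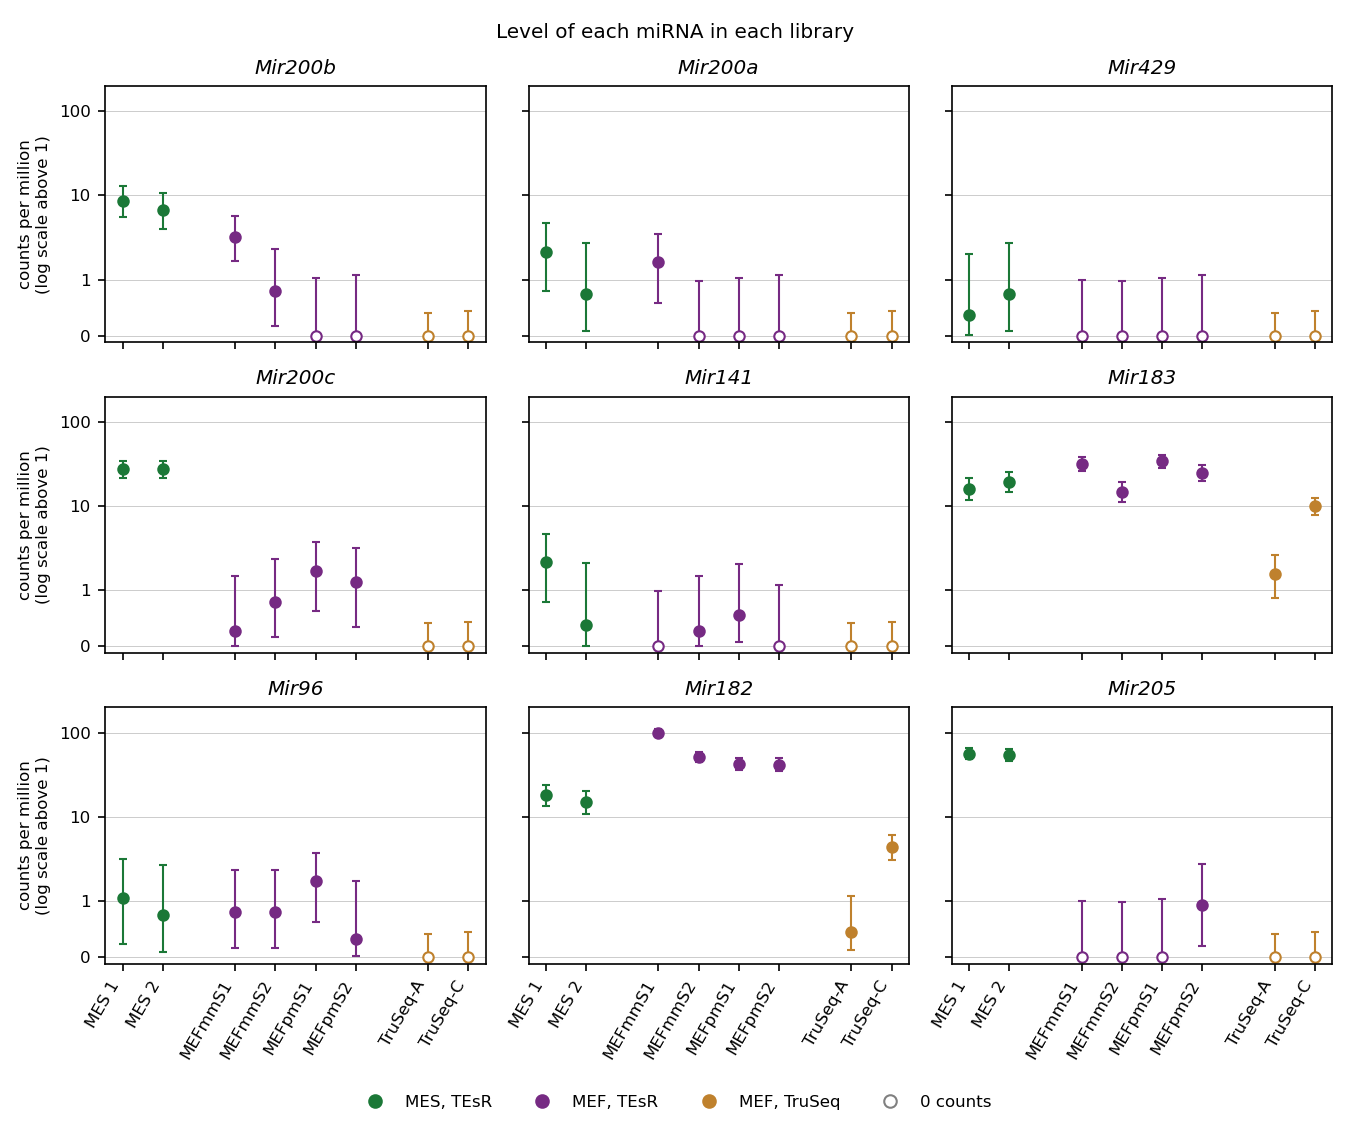
Level of each of the 9 miRNAs in the 8 libraries, in CPM on an axis that is linear up to 1 and logarithmic above it, with exact 95% intervals of the count; open points have 0 counts. Mir205, Mir200c and Mir200b are higher in both MES libraries than in any TEsR library of MEFs. Mir182 is lower in both than in the 4 TEsR libraries of MEFs, and TruSeq holds counts of Mir183 and Mir182 alone.

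The miR-183 family was present in MEFs as well as in MES. Mir183 had 45 and 52 counts in MES1 and MES2 (16.2 and 19.4 CPM). The MEF libraries by TEsR had 118 counts (31.6 CPM) in MEFmmS1, 56 (14.9 CPM) in MEFmmS2, 120 (33.9 CPM) in MEFpmS1 and 80 (24.8 CPM) in MEFpmS2. TruSeq-A had 14 counts (1.56 CPM) and TruSeq-C had 84 (9.95 CPM). By CPM the MES libraries lay within the range of MEF by TEsR, between MEFmmS2 and MEFpmS2. The mean was 17.8 ± 2.31 CPM in MES (SD, n = 2) and 26.3 ± 8.56 CPM in MEF by TEsR (SD, n = 4). The log2 fold change of 0.26 ± 0.41 did not pass the test (SE; edgeR, Benjamini-Hochberg adjusted p = 0.578).

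Mir182 had 50 and 40 counts in MES1 and MES2 (18.0 and 14.9 CPM). The counts in MEF by TEsR were 368 (98.7 CPM) in MEFmmS1, 193 (51.2 CPM) in MEFmmS2, 151 (42.7 CPM) in MEFpmS1 and 134 (41.6 CPM) in MEFpmS2. TruSeq-A had 4 counts (0.446 CPM) and TruSeq-C had 37 (4.38 CPM). By CPM both MES libraries lay below all 4 TEsR libraries of MEFs, and MEFmmS1 lay far above the other 3. The mean was 16.4 ± 2.13 CPM in MES (SD, n = 2) and 58.5 ± 27.1 CPM in MEF by TEsR (SD, n = 4), a ratio of pooled counts of 0.278 (exact 95% interval 0.221 to 0.345). The log2 fold change of -1.06 ± 0.50 did not pass the test (SE; edgeR, Benjamini-Hochberg adjusted p = 0.0773). It passed without MEFmmS2 (-1.09, adjusted p by edgeR = 0.0498) and without MEFpmS1 (-1.28, adjusted p by edgeR = 0.0344).

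Mir96, which lies between the other two, was low everywhere. It had 3 and 2 counts in MES, 3, 3, 6 and 1 in MEFmmS1, MEFmmS2, MEFpmS1 and MEFpmS2, and 0 in both TruSeq libraries. Its mean was 0.912 ± 0.233 CPM in MES (SD, n = 2) and 0.902 ± 0.578 CPM in MEF by TEsR (SD, n = 4), and the libraries overlapped. The ratio of pooled counts was 1.00 with an exact 95% interval of 0.280 to 3.00, so that a difference within these bounds was not detectable at this depth. Of the counts of Mir96 and Mir183 together, Mir96 held 6.25% and 3.70% in MES and 1.23% to 5.08% in MEF by TEsR.

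**Figure D2:**
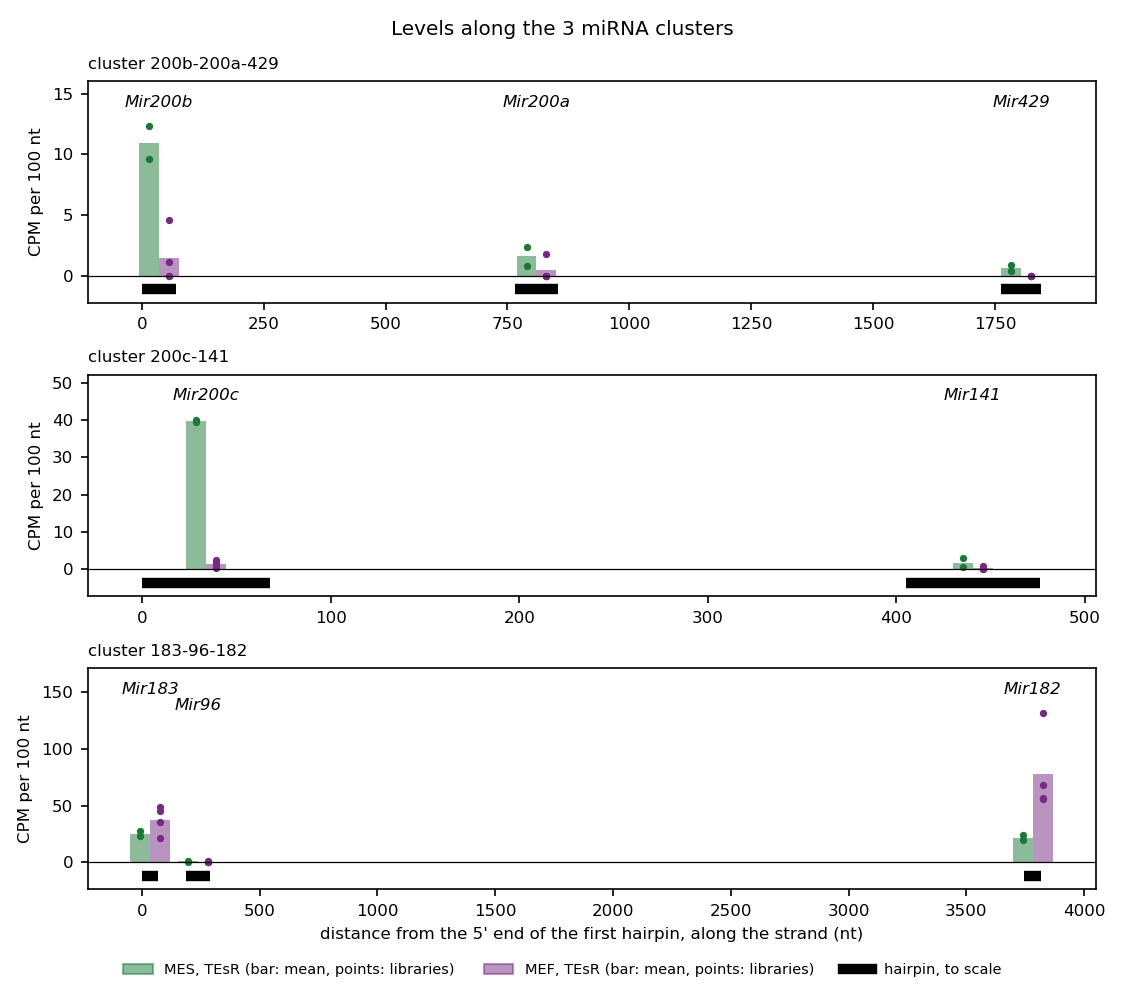
Levels of the genes of the 3 clusters in MES and MEF by TEsR, in CPM per 100 bases of hairpin (bars are means, points are libraries), against the distance in bases from the first hairpin along the strand; black bars show the hairpins to scale. In MES the first hairpin of each miR-200 cluster, Mir200b or Mir200c, is the highest of its cluster, while in MEF by TEsR Mir182, the last of its cluster, exceeds Mir183.

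The balance of Mir182 and Mir183 differed among libraries. Mir182 made up 52.6% (exact 95% interval 42.1 to 63.0) of the counts of both in MES1 and 43.5% (33.2 to 54.2) in MES2. Among the libraries of MEF by TEsR it was 75.7% (71.7 to 79.5) in MEFmmS1 and 77.5% (71.8 to 82.5) in MEFmmS2. It made up 55.7% (49.6 to 61.7) in MEFpmS1 and 62.6% (55.8 to 69.1) in MEFpmS2. The share was above that of both MES libraries in all 4, but the interval of MEFpmS1 overlapped those of both MES libraries and that of MEFpmS2 overlapped that of MES1. By TruSeq it was 22.2% (6.41 to 47.6) in TruSeq-A and 30.6% (22.5 to 39.6) in TruSeq-C. Both TruSeq shares were below those of all 4 TEsR libraries of MEFs, with no overlap of the intervals. The share uses 2 rows of 1 library, so that the share of miRNAs in the library drops out of it. Both MEFmm libraries were above both MEFpm libraries with no overlap of the intervals, and the meaning of these codes is not given in the labels.

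**Figure D3:**
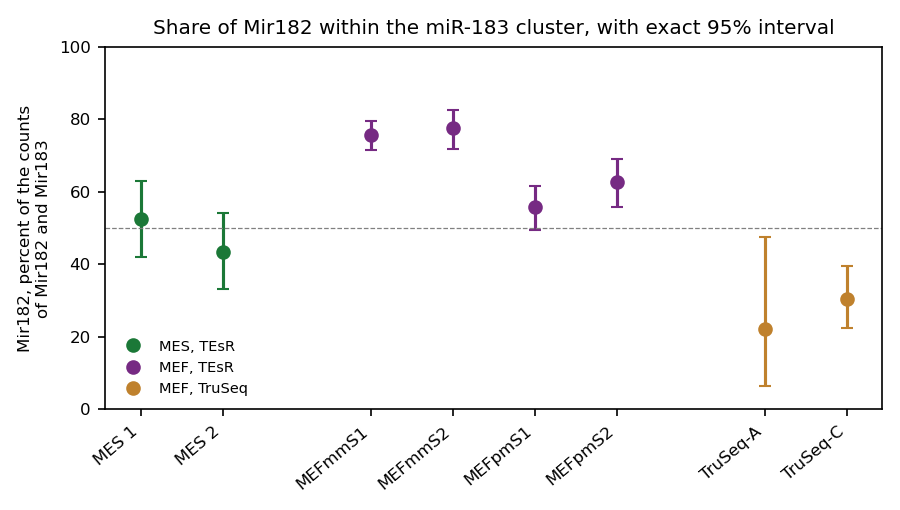
Mir182 as a percent of the counts of Mir182 and Mir183 in each of the 8 libraries, with exact 95% intervals; the dashed line marks equal counts. The 2 MES libraries sit at 52.6% and 43.5%, the 4 TEsR libraries of MEFs between 55.7% and 77.5%, and the 2 TruSeq libraries at 22.2% and 30.6%.

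Per 100 bases of hairpin, the order of the mean CPM in MES was Mir205 (81.6), Mir200c (39.8), Mir183 (25.4), Mir182 (21.9) and Mir200b (11.0). The 4 others, Mir141, Mir200a, Mir96 and Mir429, were at 0.666 to 1.76. Mir183 and Mir182 overlapped between the 2 libraries, as did the neighbours among the last 4, and each other step was clear of overlap. In MEF by TEsR the order was Mir182 (78.1) before Mir183 (37.6), which did not overlap, and the 7 other members were at 0 to 1.45 with every neighbouring pair overlapping. Mir205 was thus first in MES and among the lowest in MEF by TEsR. In both TruSeq libraries Mir183 was above Mir182 and the other 7 members had no count.

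The makeup of the 9 followed from this. Of all counts of the 9 in MES, Mir205 held 43.0% ± 0.467, the miR-200 family 29.7% ± 1.36 and the miR-183 family 27.3% ± 0.893 (SD, n = 2). In MEF by TEsR the miR-183 family held 96.9% ± 0.468, the miR-200 family 2.76% ± 0.793 and Mir205 0.338% ± 0.676 (SD, n = 4). In both TruSeq libraries the miR-183 family held 100% of 18 and 121 counts. The 4 TEsR libraries of MEFs, which differed widely in miRNA content, were close to each other in this makeup.

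**Figure D4:**
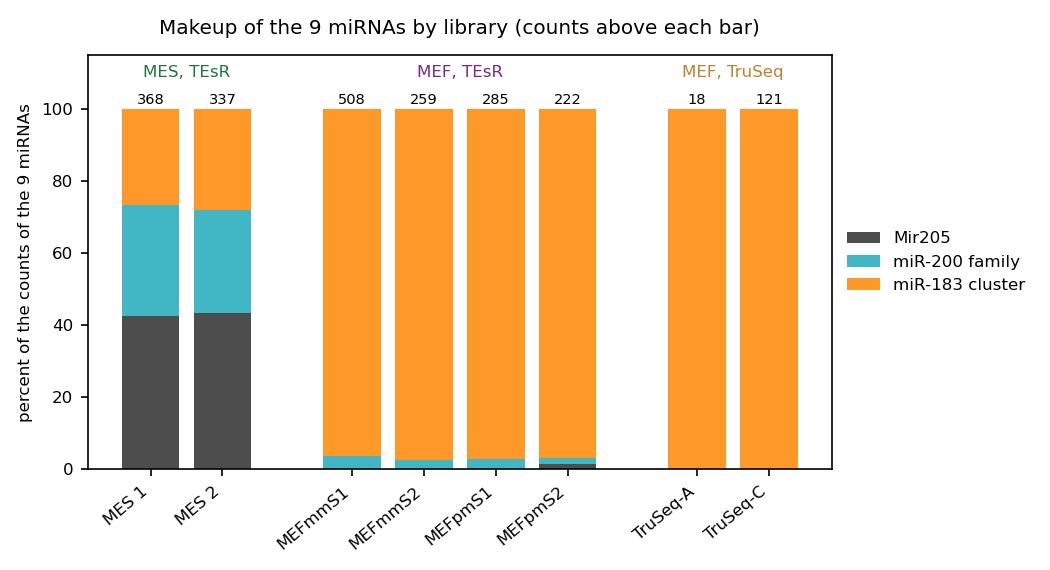
Makeup of the counts of the 9 miRNAs in each of the 8 libraries, in percent, with the number of counts above each bar. Mir205 and the miR-200 family make up most of the counts in both MES libraries, and the miR-183 family makes up from 96.3% (MEFmmS1) to 100% (TruSeq) in the MEF libraries.

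As a share of miRNA counts, the 9 together took 5.47% (exact 95% interval 4.94 to 6.04) in MES1 and 5.20% (4.67 to 5.77) in MES2. They took 0.244% in MEFmmS1, 0.453% in MEFmmS2, 0.109% in MEFpmS1 and 0.145% in MEFpmS2. The mean share was 5.33% ± 0.189 in MES (SD, n = 2) and 0.238% ± 0.154 in MEF by TEsR (SD, n = 4). As a level, the difference was smaller, with 129 ± 4.41 CPM in MES and 88.6 ± 32.2 CPM in MEF by TEsR, and the CPM of MEFmmS1 (136) was above both MES libraries. Mir21a, a miRNA abundant in fibroblasts, took 5.20% and 5.71% of miRNA counts in MES and 24.0% to 29.7% in MEF by TEsR. Mir106b and Mir29b-1 were similarly high in MEF by TEsR. The mean CPM in MES and in MEF by TEsR was 132 and 13011 for Mir21a. It was 678 and 13935 for Mir106b, and 48.9 and 13103 for Mir29b-1. The part of these rows in the shares was not tested.

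Which members lay clear of overlap between the cell types depended on the scale. By CPM, MES was above all 4 TEsR libraries of MEFs for 4 of the 9 (Mir205, Mir200c, Mir200b and Mir429) and below them for 1 (Mir182). Of the 299 miRNA rows with a count, 12.4% were above and 29.8% below in this way. The order of Mir429 rests on 0.359 and 0.747 CPM in MES, under the 0.796 to 0.931 CPM that a count of 0 allows in the MEF libraries, and was not resolved at this depth. As a percent of miRNA counts, MES was above for all 9, against 31.8% of those rows above and 11.7% below. A single count was already 0.0149% and 0.0154% of miRNA counts in MES1 and MES2. This exceeds the highest share in MEF by TEsR of Mir141 (0.00175%), Mir200a (0.00288%), Mir96 (0.00524%) and Mir429 (0 counts). It also exceeds that of Mir205 (0.00196%), Mir200c (0.00524%) and Mir200b (0.00577%). For all members but Mir183 and Mir182, any count in both MES libraries thus fixes the order on this scale. Mir183 took 0.669% and 0.802% of miRNA counts in MES and 0.0459% to 0.0979% in MEF by TEsR. Mir182 took 0.743% and 0.617% in MES and 0.0578% to 0.337% in MEF by TEsR.

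In the fit of all rows, 5 of the 9 members reached the count filter. Mir205, Mir200c and Mir200b did so through the MES libraries, so their number is no support for a difference. Of the 5, 3 were called higher in MES and 0 lower, where 43.6% of the 273 rows tested were called higher and 31.5% lower. Among the 108 miRNA rows of that fit, 17.6% were called higher and 56.5% lower. The median log2 fold change was -2.32 over these miRNA rows and 0.45 over all rows. Mir182 was called lower by edgeR with scaling by library size only and without MEFmmS2 or MEFpmS1, and by DESeq2 on all 6 libraries (-1.24, adjusted p = 0.0449). Over the alternatives with both MES libraries its adjusted p by edgeR or DESeq2 was 0.0123 to 0.167, but its sign was not the same in all. With miRNA rows scaled on their own Mir182 stood at 0.91 (edgeR, adjusted p = 0.167). With library size only on these rows, chosen after seeing the data, it was called higher in MES at 2.06 (edgeR, adjusted p = 0.0129). Without MES1 it stood at -1.36, and without MES2 at -0.98. Without MEFmmS2, the library with the fewest miRNA counts among MEF by TEsR, the log2 fold changes were 8.18 for Mir205, 5.47 for Mir200c, 3.54 for Mir200b and 0.06 for Mir183, with the same calls, while Mir182 became a call of lower in MES. The mean share of the 9 in miRNA counts of MEF by TEsR was then 0.166%.

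Scaling changed the miR-183 family and left the calls of Mir205, Mir200c and Mir200b in place. With scaling by library size only, the median of all rows moved to -0.38, 39.9% of rows were called higher and 39.6% lower. Under it Mir183 stood at -0.56 ± 0.51 (SE; edgeR, Benjamini-Hochberg adjusted p = 0.324) and Mir182 at -1.83 ± 0.55 (adjusted p = 0.0123), a call of lower in MES. With the 126 miRNA rows scaled on their own, 29.4% were called higher and 25.4% lower. There Mir183 was called higher at 2.31 ± 0.27 (SE; edgeR, Benjamini-Hochberg adjusted p = 1.86e-04), and Mir96, tested in that fit, was called higher at 2.83 ± 0.92 (adjusted p = 0.0320). Mir182 turned to 0.91 ± 0.50 there (adjusted p = 0.167). Mir183 and Mir182 thus took different signs under these scalings. Across these 3 scalings Mir205 was at 7.78 to 10.62, Mir200c at 4.74 to 7.60 and Mir200b at 2.86 to 5.75.

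**Figure D5:**
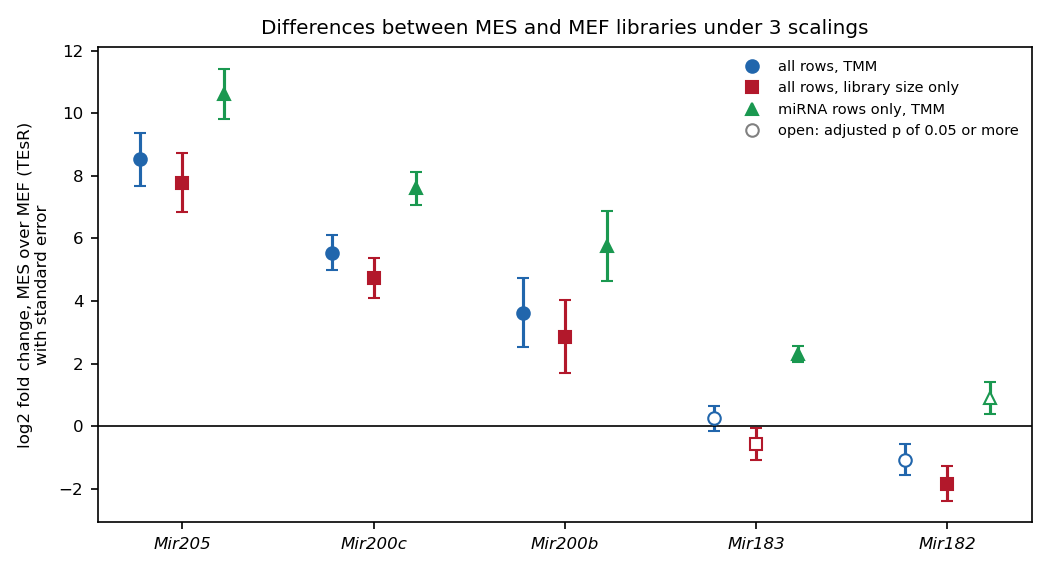
Log2 fold change of MES over MEF by TEsR with its standard error for the 5 tested members under 3 scalings, with open symbols for an adjusted p of 0.05 or more. Mir205, Mir200c and Mir200b are above 0 and called under each scaling, while Mir183 and Mir182 lie on both sides of 0.

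MEFs sequenced by TruSeq held only Mir183 and Mir182 of the 9. The 2 tables were counted separately, and method, sequencer and the share of induced samples differ between the groups and cannot be told apart, so no test was made. By CPM, the pooled counts of Mir182 in MEF by TEsR were 133 times the level in TruSeq-A (exact 95% interval 51.7 to 489) and 13.5 times that in TruSeq-C (9.74 to 19.4). For Mir183 the ratio was 16.8 (9.88 to 31.0) over TruSeq-A and 2.64 (2.08 to 3.38) over TruSeq-C. As a percent of miRNA counts the order turned for Mir183, at 0.0459% to 0.0979% in MEF by TEsR, against 0.259% in TruSeq-A and 2.50% in TruSeq-C. Mir182 took 0.0578% to 0.337% in MEF by TEsR, against 0.0740% in TruSeq-A and 1.10% in TruSeq-C. The TruSeq libraries differed from each other by a wide margin, with 18 counts of the 9 in TruSeq-A (2.01 CPM) and 121 in TruSeq-C (14.3 CPM). The totals of 5403 miRNA counts in TruSeq-A and 3366 in TruSeq-C run the other way. Counts of 0 by TruSeq allow up to 0.335 CPM in TruSeq-A and 0.355 CPM in TruSeq-C. These limits lie within the range of the TEsR libraries of MEFs for Mir200c (0.268 to 1.70 CPM) and Mir96 (0.310 to 1.70 CPM). As a percent of miRNA counts the limits of 0.0555% and 0.0891% lie above every TEsR library of MEFs for both (at most 0.00524%), so that no difference was detectable there. For Mir429, MEF by TEsR also had 0 counts, and no ratio is given.

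Of 13 other miRNAs of epithelial cells or of the epithelial to mesenchymal change, 5 reached the fit, 0 were called higher in MES and 4 lower by edgeR, all 5 changes being negative. Of the miRNA rows in that fit 56.5% were called lower, and of all rows 31.5%. Mir31, Mir7-1, Mir192 and Mir101b had at most 5 counts in a MES library and reached the count filter through MEF alone. Their negative signs are therefore no support for a difference. Mir31 was lower at -4.83 ± 0.71, Mir7-1 at -2.29 ± 0.87, Mir192 at -2.23 ± 0.88 and Mir34a, a transcriptional target of p53, at -1.51 ± 0.61 (log2 fold change and SE; edgeR, Benjamini-Hochberg adjusted p from 1.33e-04 to 0.0437). The list's median was -2.23, close to the -2.32 of all miRNA rows in the fit. With miRNA rows scaled on their own only Mir31 was called lower, at -2.86, and the list's median was -0.24. Mir203 and Mir375, both typical of epithelia, had at most 1 count in any library. Of the lists of cell type markers, all 9 tested miRNAs of pluripotent cells were called higher in MES and all 8 tested fibroblast miRNAs lower, where 17.6% of the miRNA rows were called higher and 56.5% lower. With at most 5 counts of the whole list in a MEF library, the rows of pluripotent cells reached the count filter through MES alone. Mir145a, Mir22, Mir152, Mir222, Mir143 and Mir214 had at most 10 counts in a MES library. These fibroblast rows reached the filter through MEF alone. The number called in either list is therefore no support for a difference. Of the fibroblast list, Mir10a, Mir10b, Mir199a-1, Mir199a-2 and Mir199b did not reach the fit.

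Across the 8 libraries, the rows most like the summed CPM of the 9 among the 112 miRNA rows with at least 50 counts were mmu-mir-126b, Mir339, Mir126a, Mir17 and mmu-mir-191. Their Pearson correlations of log2(CPM + 1) were 0.909, 0.906, 0.897, 0.895 and 0.891, given as a description. The points share method and depth within a group, and the rows of mmu-mir-126b and Mir126a overlap, so that their reads may be the same. In all 5 the TruSeq libraries were the lowest, with at most 7 counts.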

How the data were processed

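Per the file headers, the authors deposited raw read counts, whole numbers for each annotated small RNA row, in 1 table for TEsR and 1 for TruSeq. The submitters' processing notes list the build mm10 and the tools bedtools 2.25.0, SAMtools 1.2.1, BWA 0.7.12 and cutadapt. Not given in the sources used here are the settings, the meaning of a tag q10 in the TEsR column names, the strand used in counting and the handling of reads with several matches. No deposited column was left out. The name of the TruSeq table says control while the sample titles say induced, and groups follow the titles.

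Rows were matched by Ensembl identifier to GENCODE vM21, which holds 5453 of 5518 rows, 5445 of them at the same coordinates. The denominator of miRNA counts is 2166 miRNA rows free of overlap with snoRNA and rRNA rows, with overlapping rows of identical counts taken once and AC161199.1 left out. Single libraries have exact Clopper-Pearson 95% intervals, and a count of 0 a limit of 3 counts. Replicate libraries did not agree within sampling noise (chi-square over its degrees of freedom was 21.9 in MES, 285 to 794 in pairs of MEF by TEsR and 533 in TruSeq), so none was a duplicate.

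MES and MEF by TEsR were compared with edgeR 4.0.16 under R 4.3.3 (robust quasi-likelihood test, TMM scaling, filterByExpr at a minimum count of 10) over all rows. P-values were adjusted after Benjamini and Hochberg and called under 0.05, and 210 rows had an unadjusted p under 0.05. The scripts were tested on simulated data. Induced and uninduced MEFs were not compared. Alternatives were DESeq2 1.42.0, library size only, no filter, miRNA rows scaled on their own, duplicates taken once, a replicate block, and each library left out. The members, the lists and the rule for the rows most like them (the 5 highest Pearson correlations) were chosen with earlier results of these data known. All 13 epithelial, 12 of 12 pluripotency and 13 of 14 fibroblast names matched a row, as did 3 of 4 blood, 1 liver, 3 muscle and 3 of 6 neural names.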

Additional observations from a re-analysis of the deposited data

Results flagged for a closer look

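Among the 4 MEF libraries by TEsR, 11 values were checked for 1 library far from the others. Of these, 3 were past Dixon's 95% critical value for 4 samples, where chance gives about 1 in 20 for normally distributed values. Mir182 was at 98.7 CPM (368 counts) in MEFmmS1, against 41.6 to 51.2 CPM in the other 3 libraries. Mir200a was at 1.61 CPM (6 counts) in MEFmmS1, against 0 counts in the others. Mir205 was at 0.931 CPM (3 counts) in MEFpmS2, against 0 counts in the others. The last 2 values rest on 6 and 3 counts. With 0 counts in the other 3 libraries, any count in 1 library passes the critical value. These 2 flags were thus fixed in advance, and the rate of 1 in 20 does not apply to them.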

How the results depend on the processing

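Mir205 and Mir200c were called higher in MES under every alternative run (log2 fold change 7.78 to 11.99 and 4.74 to 8.96), and Mir200b in all but those without MES1 or MES2. Of the recomputed log2 fold changes, 54 kept sign and call, 7 became calls (1 of them, Mir182 under library size only on miRNA rows, with a change of sign), 2 lost the call and 2 others changed sign without a call. With miRNA rows scaled on their own, 37 rows were called higher and 32 lower, with 5 members higher, and Mir182 turned to 0.91. With library size only on these rows, chosen after seeing the data, 56 were higher and 15 lower, with 6 members higher and Mir182 at 2.06. DESeq2 and library size only each called 1 member lower, Mir182, and under library size only Mir183 turned to -0.56 and 50.2% of calls were higher in MES, against 58.0% in the main analysis. The cause was not tested. Without a filter, 611 rows gave 159 higher and 95 lower, and 4 members higher, with Mir429 added (adjusted p by edgeR = 0.0471). Duplicates taken once gave 114 and 83. Leaving out 1 library gave 103 to 121 rows higher and 59 to 97 lower, with 2 to 3 members higher and 0 to 1 lower; where 1 MES library is left, it is assumed to vary like the MEFs. The members' share of miRNA counts was then 5.20% to 5.47% in MES, 0.166% to 0.280% in MEF by TEsR and 0.333% to 3.59% in TruSeq. Over all counts of the library the share was 0.0129% in MES and 0.00886% in MEF by TEsR, and without Mir182 4.65% and 0.0728%. The replicate block gave 117 higher and 77 lower with 3 members higher and 0 lower, and changed no call of a member. Library numbers did not pair MES with MEF libraries (r = -0.047 for MEFmm and 0.0084 for MEFpm over 323 rows). Pairing of MEFmm with MEFpm libraries was not checked. Depth limits Mir200a, Mir429, Mir141 and Mir96, with at most 6 counts in a library.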
